A study of Homo sapiens with 16 samples.

Results

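The ATP-binding cassette (ABC) transporter genes were followed in venetoclax-resistant clones of 2 multiple myeloma cell lines and in the parental lines the clones came from. Members were all genes whose symbol is ABC, a subfamily letter from A to G and a number, in the gene count table of either line. The rule found 27 members among the 15529 genes listed in either table. Each table listed 24 of them, and 21 were in both. The symbol rule does not take in TAP1, TAP2 and CFTR, which belong to the same superfamily under other names.

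KMS12PE and KMS27 are human myeloma cell lines that carry the t(11;14) translocation and were sensitive to venetoclax, a drug that blocks BCL2, a protein that keeps cells from apoptosis. High-dose venetoclax was used to obtain drug-tolerant cells, each clone was grown from a single cell, and the clones were kept in 100 nM venetoclax. PolyA RNA of 3 clones and the parental line was sequenced for each line: clones A, C and D of KMS12PE and clones B5, C1 and C5 of KMS27, with 2 libraries per population and 16 in all. The comparison with the parental line, for which no drug is stated, therefore mixes the drug in the medium, the selection and the single-cell origin, and these cannot be told apart. No label says that the libraries of a population came from separate cultures, so p-values measure only the spread between these libraries, which may be technical. In such bulk samples, fewer cells with a transcript and less of it per cell cannot be told apart.

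ABC proteins bind and hydrolyse ATP in a pair of nucleotide-binding domains and, in most members, use that energy to move a substrate across a membrane. ABCB1 (P-glycoprotein), ABCG2 and several ABCC proteins pump drugs out of cells and are the classic multidrug resistance pumps, and venetoclax is a substrate of ABCB1. Other members work inside the cell: ABCB6, ABCB8 and ABCB10 are linked to mitochondria, ABCD proteins to peroxisomes and lysosomes, and most ABCA proteins to lipids, while ABCE1 and the ABCF proteins have no membrane domain and act on ribosomes or translation.

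The libraries held 5831289 to 13674426 counts in KMS12PE and 20257318 to 52615971 in KMS27. The lines thus differ in depth as well as in origin. All 10 plasma cell markers (SDC1, CD38, TNFRSF17, XBP1 and 6 others) were listed in both lines. Their sum ranged from 3553 to 4542 CPM over the KMS12PE libraries. In KMS27 it was 10680.0 and 12369 CPM in the parental libraries and 6135 to 10961 CPM in the clones, ranges that overlap. CD38, MZB1 and JCHAIN were called lower in the mean of the clones, 3 of 10 markers, beside 12.7% of all genes. By clone, 2 markers were called lower in B5, 1 in C1 and 6 in C5, and 1 was called higher in C1. The shares of all genes called in either direction were 21%, 21.6% and 19.7%. The part of these marker differences in the results below was not tested. No marker of myeloid or erythroid cells was listed. Of 5 T cell markers 2 were listed in each line, with sums of at most 6.18 CPM in KMS12PE and 12.5 CPM in KMS27, and of 5 stromal markers only PDGFRB was listed, at up to 0.279 CPM in KMS27.

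ABCB1 had no row in either table and was not analysed here. Every listed gene reached 5 counts in 4 or more libraries among the 8 of its line. If this rule alone decided the listing, a gene without a row stayed under 5 counts in most libraries of that line. Its counts in the remaining libraries are not bounded. Whether the rule alone decided is not known, so no level is given for such genes. GENCODE v29 holds 45 protein-coding genes that match the symbol rule, and 18 of them had no row. Subfamilies D, E and F were complete, with 4, 1 and 3 genes. Subfamily A had rows for 7 of 12 genes, B for 6 of 9, C for 5 of 11 and G for ABCG2 alone of 5. Among the pumps, ABCB5, ABCC3, ABCC6 and ABCC11 also had no row. ABCA1, ABCA3 and ABCG2 were listed in KMS12PE only, and ABCA4, ABCA10 and ABCB4 in KMS27 only.

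The most abundant members were the soluble ones. Levels between genes were compared per kilobase of exon, in CPM (counts scaled by library size). In parental KMS12PE, ABCF2 stood at 73.9 ± 5.3 CPM per kilobase (SD, n = 2), ABCF1 at 68.4 ± 2.1 and ABCE1 at 57.3 ± 3.2. In parental KMS27, ABCF1 stood at 53.6 ± 1.4 CPM per kilobase, ABCE1 at 50.6 ± 0.30 and ABCF2 at 36.1 ± 3.5. ABCF1 takes part in translation initiation, and ABCE1 splits ribosomes after termination so that their subunits can be used again. Of the exonic bases of ABCF2, 54.0% are shared with the same-strand gene AC021097.2, so its counts may be split. The highest membrane transporter in both lines was ABCB10 of the mitochondrial inner membrane, at 35.3 ± 1.6 and 22.0 ± 0.26 CPM per kilobase. ABCC1 (MRP1), a pump for glutathione conjugates and many drugs, was the highest pump in both, at 24.8 ± 1.8 CPM per kilobase in KMS12PE and 7.48 ± 0.40 in KMS27. At the low end were ABCC2 in KMS12PE (0.108 ± 0.0085) and ABCA10 in KMS27 (0.150 ± 0.038). In the sum of all 24 listed members, in CPM, the KMS12PE libraries ranged from 1472 to 1565 and overlapped between parental and clones. In KMS27 the parental libraries summed to 968.5 and 969.8 CPM and the 6 clone libraries to 998.6 to 1108 CPM, with no overlap. Scaled by total counts alone, the KMS27 parental libraries summed to 1002 and 933.5 CPM and B5 replicate 2 to 927 CPM, so that the groups then overlapped.

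The parental lines differed in 13 of the 21 members they share, 61.9% of members beside 64% of all 11623 genes in the joint edgeR fit, with 9 higher in KMS12PE (31.2% of genes) and 4 lower (32.7%). ABCD2, a peroxisomal importer of very long-chain fatty acids, was 4.71 higher on the log2 scale (SE 0.17, edgeR adjusted p = 6.7e-11). ABCB9, a lysosomal peptide transporter, was 4.62 higher (SE 0.22, edgeR adjusted p = 8.6e-10). In parental KMS27, ABCD2 and ABCB9 held only 57 and 58 counts over the 2 libraries. ABCC1 was 1.56 higher and ABCC4 (MRP4), an exporter of cyclic nucleotides and some drugs, 1.27 higher. The log2 differences of ABCA2, ABCF2 and ABCB10 were 2.02, 0.86 and 0.51. ABCB6, a porphyrin transporter, was lower in KMS12PE by 5.49 (log2 difference -5.49, SE 0.51, edgeR adjusted p = 6.6e-07). ABCC2 (-2.49), ABCA5 (-2.01) and ABCD3 (-0.48) were also lower there. Leaving out 1 parental library lost the call for ABCA5 (KMS12PE replicate 1) and ABCD3 (KMS12PE replicate 3). Cell line cannot be told apart from the making and depth of each line's libraries in these values.

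Promoters are shown for ABCD2 and ABCB10, which are described below as higher in all 3 KMS27 clones, and for ABCC4, the pump called lower in KMS27. Each run is the 250 bases before a RefSeq start site (GRCh38.p14), 5′ to 3′ on the gene's strand, and no base of it lies in an exon of the GENCODE v29 basic set. Capitals mark matches, on either strand, to 8 motifs searched in all windows: the E-box CACGTG, the GC box GGGCGG, the CCAAT box, the TATA box TATAAA, the AP-1 site TGACTCA, the antioxidant element core TGACNNNGC, the nuclear receptor site AGGTCA and the ETS core GGAAGT, where matches of different motifs may overlap.
ABCD2, chr12:39619804-39620053, minus strand: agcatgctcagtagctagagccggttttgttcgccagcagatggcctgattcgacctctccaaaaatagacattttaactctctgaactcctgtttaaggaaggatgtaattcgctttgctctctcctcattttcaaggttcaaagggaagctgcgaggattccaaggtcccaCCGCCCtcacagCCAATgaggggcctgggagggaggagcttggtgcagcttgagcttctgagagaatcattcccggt
ABCB10, chr1:229558708-229558957, minus strand: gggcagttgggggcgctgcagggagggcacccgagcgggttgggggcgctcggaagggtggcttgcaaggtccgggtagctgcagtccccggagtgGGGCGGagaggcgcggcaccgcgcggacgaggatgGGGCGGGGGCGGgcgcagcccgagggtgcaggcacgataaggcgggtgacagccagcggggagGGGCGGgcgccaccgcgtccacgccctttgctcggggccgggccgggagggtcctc
ABCC4, chr13:95301452-95301701, minus strand: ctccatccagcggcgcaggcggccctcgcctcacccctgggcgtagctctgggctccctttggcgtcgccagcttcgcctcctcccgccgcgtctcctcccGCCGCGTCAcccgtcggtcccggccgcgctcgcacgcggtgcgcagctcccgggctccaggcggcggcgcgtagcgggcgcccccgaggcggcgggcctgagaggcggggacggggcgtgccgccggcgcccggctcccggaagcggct
The ABCB10 window is 77.2% G or C and holds 4 GC boxes (GGGCGG). The ABCC4 window is 80.4% G or C with 42 CpG dinucleotides, and its match is to the antioxidant element core TGACNNNGC. The ABCD2 window shown is 50.8% G or C with 7 CpG dinucleotides, and it holds a GC box and a CCAAT box. Another ABCD2 window (chr12:39605508-39605757, 35.2% G or C), not shown, holds a match to the AP-1 site. RefSeq windows were found for 22 of the 27 members, 32 windows in all. Some members, among them ABCG2 and ABCB9, have several windows. Windows of ABCG2 overlap, so the same match can be counted more than once in the shares below. GGGCGG was in 21 of these 32 (65.6%) and in 42.6% of all 35116 windows of that length, CACGTG in 7 (21.9%) and in 6.34%, TGACNNNGC in 8 (25.0%) and in 10.9%, and GGAAGT in 7 (21.9%) and in 19.5%. CCAAT was in 21.9% of member windows and 32.0% of all, TATAAA in 15.6% and 10.7%, TGACTCA in 3.12% and 4.20%, and AGGTCA in 6.25% and 12.1%. A match is a description of the sequence, not a bound site.

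Among the drug efflux pumps, 0 were called higher in any clone or mean of clones of either line, in edgeR, in DESeq2 or under the other settings and left-out libraries tried. A gene was called where its edgeR quasi-likelihood p, adjusted over all genes tested, was under 0.05. Over all genes, 0.358% were called higher in the mean of the KMS12PE clones and 13% in that of KMS27. At an unadjusted p under 0.05, 1 pump was higher in 1 clone, ABCC4 in KMS12PE clone C. A list of 13 pumps had 7 members with a row in KMS12PE, 6 of them tested, and 6 in KMS27. In each line 1 pump was called lower in the mean of the 3 clones: ABCA3 in KMS12PE, beside 1.12% of all genes called lower, and ABCC4 in KMS27, beside 12.7%. DESeq2 called 0 pumps lower in KMS12PE and 2 in KMS27, ABCC4 and ABCC2. Shares of all genes in DESeq2 or at an unadjusted p are not given. The pumps' median log2 fold change was 0.06 in KMS12PE and -0.39 in KMS27, beside -0.003 and -0.01 over all genes. Summed over the listed pumps, parental libraries held 344.8 ± 2.6 CPM in KMS12PE and 110.5 ± 12 in KMS27 (SD, n = 2). The clone means ran from 321 to 357.5 CPM in KMS12PE and from 96.6 to 103 in KMS27.

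ABCC1 in KMS12PE was at 172 and 155 CPM in the parental libraries, 156 and 152 in clone A, 146 and 162 in clone C and 168 and 175 in clone D. In KMS27 ABCC1 was at 51.2 and 47.4 CPM in the parental libraries, 50.2 and 44.1 in B5, 49.1 and 45.6 in C1 and 45.7 and 45.4 in C5. The groups overlapped in both lines. The log2 fold change of ABCC1 was -0.03 in KMS12PE (95% interval -0.20 to 0.14) and -0.08 in KMS27 (-0.28 to 0.12), so a change of 0.3 in either direction lies outside both intervals. ABCG2 (BCRP), a pump with a broad range of drug substrates, was at 36.4 and 42.9 CPM in parental KMS12PE, 39.9 and 43.3 in A, 41.3 and 38.7 in C and 46.1 and 46.8 in D. Clone D's libraries were the highest, A and C lay within or close to the parental range, and the log2 fold change over the clones was 0.10 (95% interval -0.11 to 0.32).

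ABCC4 was called lower in the mean of the KMS27 clones and was not called in that of KMS12PE. Its KMS27 libraries were at 15.3 and 14.0 CPM in the parental line, 7.78 and 8.88 in B5, 11.0 and 10.9 in C1 and 9.47 and 8.22 in C5. All 6 clone libraries lay below both parental ones, and the log2 fold change was -0.66 (SE 0.12, edgeR adjusted p = 0.00465, 95% interval -0.93 to -0.38), 1.58 times lower. In KMS12PE ABCC4 was at 42.3 and 37.4 CPM in the parental libraries, 37.6 and 35.6 in A, 51.0 and 46.3 in C and 49.7 and 43.4 in D. Clone A was within or below the parental range and C and D above it, and the log2 fold change was 0.13 (95% interval -0.10 to 0.35). With the replicate number as a block, the KMS12PE clones differed among themselves in ABCC4 (edgeR adjusted p = 0.00201) and in ABCC5 (0.0481), differences that the fit without the block did not call.

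ABCC5 (MRP5), another exporter of cyclic nucleotides, and ABCC10 (MRP7), a pump for taxanes and other agents, overlapped between parental and clones in both lines. ABCC5 in KMS12PE was at 37.4 and 48.1 CPM in the parental libraries, 40.1 and 44.0 in A, 43.5 and 57.1 in C and 32.2 and 49.9 in D. In KMS27 it was at 36.3 and 28.9 CPM in the parental libraries, 36.2 and 20.3 in B5, 30.4 and 27.5 in C1 and 34.1 and 32.2 in C5. The 2 libraries of 1 population often lay further apart than the populations did, and the log2 fold changes were 0.06 (95% interval -0.36 to 0.47) and -0.12 (-0.54 to 0.31). ABCC10 in KMS12PE was at 8.08 and 12.7 CPM in the parental libraries, 9.78 and 10.8 in A, 9.52 and 12.7 in C and 9.15 and 13.6 in D. In KMS27 it was at 11.6 and 7.88 CPM, 14.3 and 6.33 in B5, 15.3 and 11.6 in C1 and 13.3 and 9.54 in C5. Its log2 fold changes were 0.07 (-0.46 to 0.61) and 0.27 (-0.40 to 0.93), intervals wide enough to hold changes in either direction.

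The scarce pumps were ABCC2 and ABCB4. ABCC2 (MRP2) exports conjugates into bile, and ABCB4 is the phosphatidylcholine transporter closest in sequence to ABCB1. ABCC2 in KMS27 was at 3.77 and 2.93 CPM in the parental libraries, 3.83 and 1.22 in B5, 1.15 and 0.768 in C1 and 0.876 and 1.76 in C5. All clone libraries but B5 replicate 1 were lower than both parental ones, and the log2 fold change over the clones was -1.17 (95% interval -2.09 to -0.25, edgeR adjusted p = 0.0631). Over the clones ABCC2 was called lower in DESeq2 (DESeq2 adjusted p = 0.0433). Clone C1 was called lower at -1.77 (edgeR adjusted p = 0.0450), a call that held in 2 of 8 fits with a library left out. In KMS12PE ABCC2 was between 0.315 and 0.774 CPM in the 8 libraries, its groups overlapped, and it was left out of that line's test by the filter on low counts.
ABCB4 in KMS27 was at 0.725 and 1.01 CPM in the parental libraries, 0.166 and 0.106 in B5, 0.993 and 1.23 in C1 and 0.472 and 0.519 in C5. Clone B5 was lowest, on 4 and 2 counts, and was called lower at -2.60 (SE 0.53, edgeR adjusted p = 0.00936), while C1 lay within or above the parental range. The B5 call was lost without parental replicate 2 (edgeR adjusted p = 0.0620). Over the 3 clones the ABCB4 difference was -1.02 (95% interval -1.82 to -0.22, edgeR adjusted p = 0.0625).

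**Figure D1:**
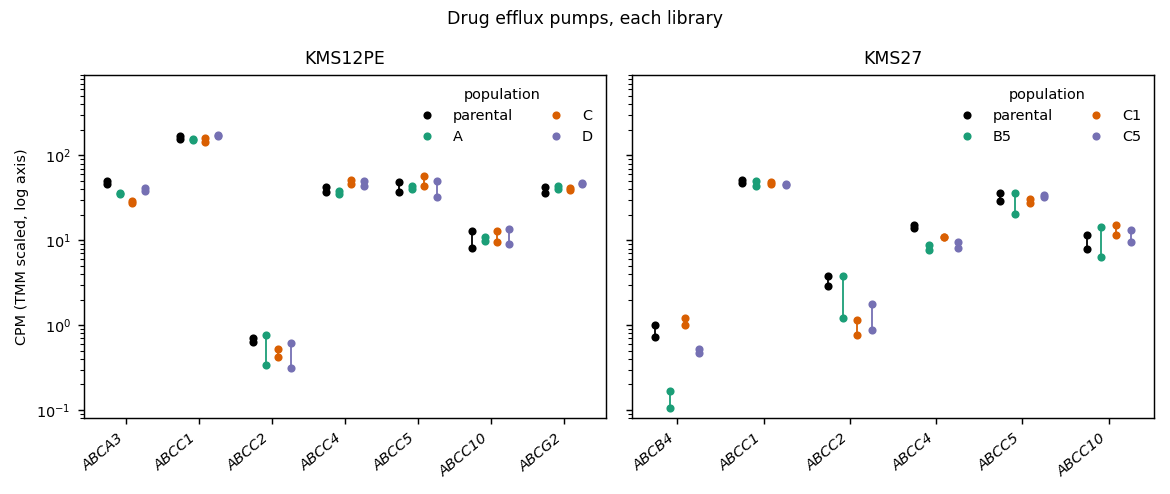
Level of each listed drug efflux pump in every library, as TMM-scaled CPM on a log axis, KMS12PE at left and KMS27 at right, with 1 point per library and a line joining the 2 libraries of a population. ABCC1 points overlap between parental and clones in both lines, KMS27 ABCC4 clone points all lie below the 2 parental ones, and KMS27 ABCB4 in clone B5 lies below every other ABCB4 point.

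In KMS12PE, 1 of 23 members tested was called in the mean of the 3 clones, and it was lower, beside 1.47% of 12279 genes called and 1.12% called lower. This was ABCA3, a lysosomal lipid transporter of surfactant-producing cells that has also been tied to drug sequestration. ABCA3 was at 50.1 and 46.2 CPM in the parental libraries, 35.5 and 35.7 in clone A, 27.3 and 29.4 in clone C and 38.0 and 41.8 in clone D. All 6 clone libraries lay below both parental ones. The log2 fold change was -0.49 (SE 0.086, edgeR adjusted p = 0.0313, 95% interval -0.68 to -0.29), 1.40 times lower. By clone it was -0.43 in A, -0.76 in C (edgeR adjusted p = 0.00971) and -0.26 in D, and C was the clone called. In edgeR, clone A had 0 members called (0.448% of genes), C 1 (1.78%) and D 0 (5.16%). The DESeq2 counts were 0, 1 and 0, and 2, 3 and 4 members had an unadjusted edgeR p under 0.05. The share of all genes is not given for DESeq2 or at an unadjusted p, so these counts have no background beside them. The 3 clones differed among themselves in ABCA3 alone (edgeR adjusted p = 0.0458, with 8.22% of genes called). The difference among clones was lost whichever library was left out. The ABCA3 call over the clones was lost without either parental library, either A library or either C library (edgeR adjusted p between 0.0312 and 0.323 over the 8 libraries left out) and in DESeq2.

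The 2 libraries of each KMS12PE population carry the numbers 1 and 3, and libraries with the same number deviated together, so the fit was repeated with the number as a block. The members called then rose from 1 to 3, beside 6.5% of genes. ABCA3 was lower by 0.48 on the log2 scale (log2 fold change -0.48, edgeR adjusted p = 0.000441) and ABCB10 at -0.23 (edgeR adjusted p = 0.0266), and ABCB8, a mitochondrial transporter linked to potassium and iron handling, was higher at 0.41 (edgeR adjusted p = 0.0274). ABCB10 was at 141 and 132 CPM in the parental libraries, 129 and 124 in A, 128 and 114 in C and 111 and 95.5 in D, so that all clone libraries lay below both parental ones, as for ABCA3 (2 of 23 members, beside 4.63% of genes). ABCB8 was at 18.3 and 26.7 CPM in the parental libraries, 26.3 and 31.6 in A, 20.2 and 32.0 in C and 26.2 and 43.7 in D. For ABCB8 replicate 3 was above replicate 1 in each population, and each clone library lay above the parental library of its own number.
With the block, clone A had 2 members called (ABCA2 at -0.43 and ABCA3 at -0.43, beside 3.65% of genes) and clone C 2 (ABCA3 at -0.76 and ABCD2 at -0.43, beside 7.08%). Clone D had 5, beside 16.4% of genes, among them ABCA5 at -1.47, ABCB10 at -0.41, ABCB8 at 0.64 and ABCF3 at 0.28. The clones differed among themselves in 8 members, beside 26.1% of genes. ABCA5 lies on the long arm of chromosome 17 (chr17:69244311-69327244), and in clone D its libraries were at 0.631 and 3.74 CPM beside 3.69 and 9.11 in the parental line, a difference not called without the block (-1.42, edgeR adjusted p = 0.339).

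In KMS27, 10 of 24 members (41.7%) were called in the mean of the 3 clones, beside 25.8% of 14088 genes. Of these, 6 were higher, where 13% of all genes were called higher, and 4 were lower, where 12.7% were. The median log2 fold change was 0.098 over the members and -0.01 over all genes. The higher members included ABCA4, ABCB9, ABCB10 and ABCD2, and the lower ones were ABCA10, ABCB6, ABCC4 and ABCE1. All 6 clone libraries lay above both parental ones for 8 members (33.3%, beside 16% of genes) and below them for 3 (12.5%, beside 14%). The call count depended on single libraries: it fell without any 1 parental, C1 or C5 library and rose without either B5 library. The share of all genes called in those fits is not given, so whether the shift is particular to the members was not tested. ABCA4 and ABCD2 were called in 8 of 8 fits with a library left out, ABCB10 and ABCC4 in 7, ABCB9 and ABCE1 in 6, ABCB6 in 3 and ABCA10 in 2.

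Of the members tied to peroxisomes and lysosomes, ABCD2 and ABCB9 were called higher, and ABCD3 and ABCD4 were not called. ABCD2 was at 1.02 and 1.13 CPM in the parental libraries, 3.12 and 3.03 in B5, 4.57 and 4.72 in C1 and 7.99 and 6.82 in C5. The libraries of a population lay close together, the clones did not overlap the parental line, and B5 was lowest and C5 highest among them. The log2 fold change was 2.14 (SE 0.21, edgeR adjusted p = 0.000164, 95% interval 1.66 to 2.61), 4.40 times higher. The ABCD2 parental libraries held 57 counts in all. ABCB9 was at 1.31 and 0.858 CPM in the parental libraries, 2.12 and 2.50 in B5, 2.80 and 2.54 in C1 and 1.99 and 1.96 in C5. All ABCB9 clone libraries were above both parental ones, with a log2 fold change of 1.08 (SE 0.27, edgeR adjusted p = 0.0196). The ABCB9 parental libraries held 58 counts in all. Of the exonic bases of ABCB9, 74.2% overlap opposite-strand genes, among them OGFOD2 (log2 fold change -0.32, edgeR adjusted p = 0.127) and ARL6IP4 (0.12, edgeR adjusted p = 0.661), and the use of strand in counting is not given in the sources used here. ABCD3 (0.30, edgeR adjusted p = 0.0603), the most abundant peroxisomal member, and ABCD4 (-0.32, edgeR adjusted p = 0.161), a lysosomal vitamin B12 transporter, were not called.

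Of the members tied to mitochondria, ABCB10 was called higher and ABCB6 lower. ABCB10, which is linked to haem synthesis, was at 85.7 and 84.3 CPM in the parental libraries, 127 and 129 in B5, 124 and 116 in C1 and 135 and 113 in C5. The 3 clones were alike and all above the parental line, with a log2 fold change of 0.55 (SE 0.096, edgeR adjusted p = 0.00381, 95% interval 0.33 to 0.76). ABCB6 was at 32.6 and 33.6 CPM in the parental libraries, 23.2 and 23.4 in B5, 34.5 and 28.3 in C1 and 25.5 and 25.3 in C5. C1 replicate 1 lay above the parental line and the other clone libraries below it, and the log2 fold change was -0.32 (SE 0.099, edgeR adjusted p = 0.0408), a call absent in DESeq2 (DESeq2 adjusted p = 0.0533). ABCB6 shares 94.1% of its exonic bases with a same-strand gene, AC068946.2, so its counts may be split between them. ABCB8 was not called (0.12, 95% interval -0.13 to 0.38).

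The lipid group had ABCA4 called higher and ABCA10 called lower among 6 members tested. ABCA4, a flippase for retinoid lipids known from photoreceptors (chr1:93992835-94121132), was at 7.18 and 8.0 CPM in the parental libraries, 25.4 and 32.2 in B5, 19.2 and 15.0 in C1 and 20.9 and 23.4 in C5. The lowest clone library lay well above the highest parental one, and B5 was the highest clone. The mean went from 7.59 ± 0.58 CPM (SD, n = 2 libraries) to 22.7 ± 5.9 (SD, n = 3 clone means), a log2 fold change of 1.55 (SE 0.16, edgeR adjusted p = 0.000195, 95% interval 1.19 to 1.90). ABCA10 was at 1.12 and 0.780 CPM in the parental libraries, 0.499 and 0.106 in B5, 0.437 and 0.154 in C1 and 0.371 and 0.200 in C5. The clone values rest on 2 to 22 counts a library, all below both parental ones (31 and 20 counts), with a log2 fold change of -1.62 (SE 0.53, edgeR adjusted p = 0.0498). Replicate 2 was below replicate 1 in all 4 populations for ABCA10. The ABCA10 call was absent in DESeq2 and in the fit without the filter. ABCA10 shares 318 exonic bases (5.0%) with the same-strand gene ABCA5, which held 788 to 1734 counts per KMS27 population. The part of the shared bases in the ABCA10 counts was not tested.

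Of the 4 members without a membrane domain, ABCE1 was called lower. ABCE1 was at 197 and 199 CPM in the parental libraries, 144 and 136 in B5, 165 and 154 in C1 and 160.2 and 142 in C5. All 6 clone libraries were lower, with a log2 fold change of -0.40 (SE 0.087, edgeR adjusted p = 0.0102), 1.32 times lower. Opposite-strand genes overlap 13.3% of its exonic bases. In KMS12PE ABCE1 was at 216 and 234 CPM in the parental libraries, 216 and 234 in A, 218 and 191 in C and 213 and 191 in D, and its groups overlapped (-0.10, 95% interval -0.29 to 0.09).
ABCF1 in KMS27 was at 183 and 189.9 CPM in the parental libraries, 202 and 201 in B5, 211 and 201 in C1 and 234 and 278 in C5. All clone libraries were above both parental ones, and C5 alone was called (0.46, edgeR adjusted p = 0.0263). In KMS12PE ABCF1 ran from 233 to 268 CPM and ABCF2 from 241 to 298 CPM over the 8 libraries, with parental and clone libraries interleaved. ABCF2 in KMS27 was at 119 and 137 CPM in the parental libraries, 125 and 168 in B5, 159.9 and 159 in C1 and 156 and 168 in C5, not called (0.29, 95% interval 0.01 to 0.56).

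**Figure D2:**
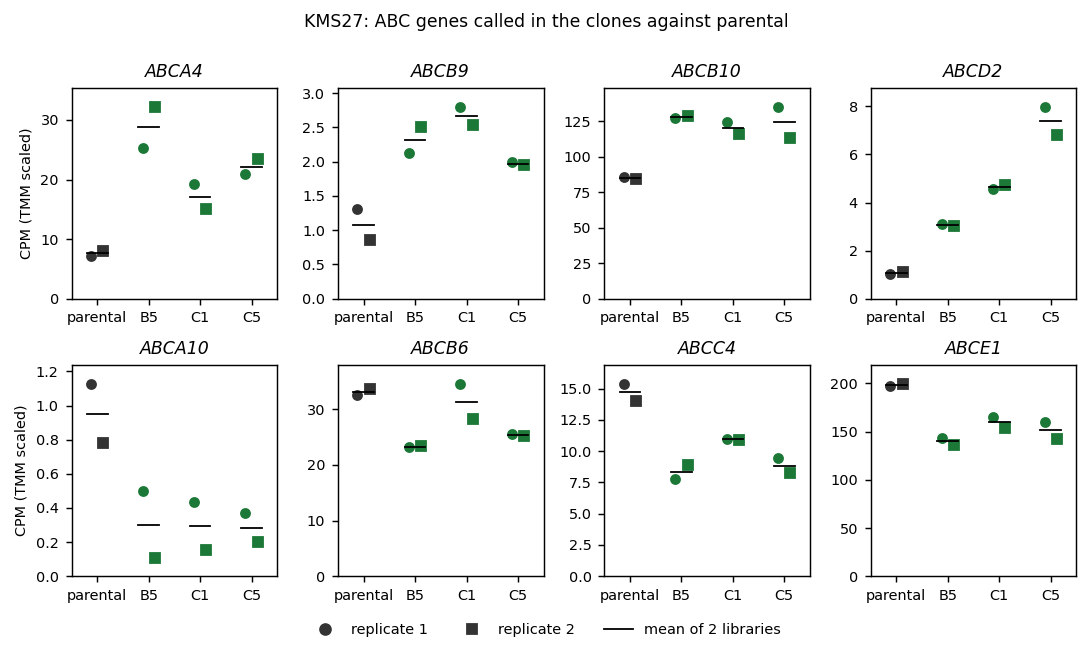
ABC genes reported here as called in the KMS27 clones against the parental line, as TMM-scaled CPM in each library, with circles for replicate 1, squares for replicate 2 and a bar at the mean of the 2 libraries. ABCA4, ABCB10 and ABCD2 clone points all lie above the parental points, and ABCB6 in C1 overlaps them.

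Clone by clone, 8 members were called in B5 (21% of genes), 8 in C1 (21.6%) and 9 in C5 (19.7%). The 3 contrasts share the 2 parental libraries, so they are set side by side and not counted as separate support. ABCA4, ABCB10 and ABCD2 were called higher in all 3 clones, beside 4.5% of genes, and 0 members were called lower in all 3, beside 3.73%, though ABCC4 and ABCE1 had an unadjusted edgeR p under 0.05 in each. For ABCD2 the log2 fold changes in B5, C1 and C5 were 1.52, 2.11 and 2.78, for ABCA4 1.92, 1.18 and 1.55, and for ABCB10 0.59, 0.50 and 0.55. ABCB9 (1.08 and 1.30) was called in B5 and C1. ABCC4 (-0.82 and -0.73) and ABCE1 (-0.50 and -0.39) were called in B5 and C5. ABCB6 was called in B5 (-0.51), ABCD4 in C1 (-0.66) and ABCA2 in C5 (1.12). ABCA4 and ABCD2 held in each clone whichever library was left out. The ABCB9 call in B5 held in 1 of 8 such fits and was absent in DESeq2. The ABCE1 call in C5 and the ABCD4 call in C1 held in 2 of 8. The other clone calls named in this paragraph held in 4 to 7 of 8. In each clone the count of members called fell without any 1 parental, C1 or C5 library. It rose without either B5 library in C1 and C5. In B5 it rose without B5 replicate 1 and fell without B5 replicate 2. The share of all genes called in those fits is not given.

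The test of a difference among the 3 KMS27 clones called 6 members, beside 13.7% of genes, among them ABCA2, ABCA4, ABCB4 and ABCD2. ABCA2, a lysosomal transporter tied to sterol traffic, was at 6.60 and 6.20 CPM in the parental libraries, 4.91 and 3.14 in B5, 10.1 and 4.95 in C1 and 13.5 and 14.4 in C5. B5 lay below the parental line, C5 above it, and the 2 C1 libraries on either side (edgeR adjusted p = 0.0205 among clones). For ABCD2 (edgeR adjusted p = 0.0143 among clones) C5 was also the highest clone. The count of members called among the clones fell without any 1 parental, C1 or C5 library and rose without either B5 library. The ABCA2 and ABCD2 differences among clones were not called without either C5 library. That of ABCA4 stayed called only without B5 replicate 1, and that of ABCB4 was lost without any 1 C1 or C5 library. The share of all genes called in those fits is not given.

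**Figure D3:**
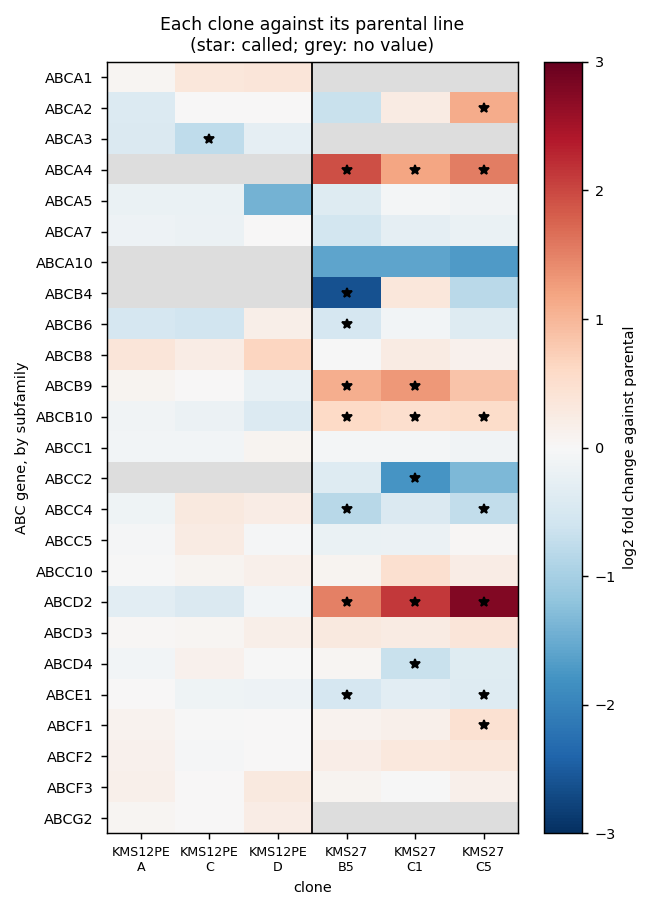
Log2 fold change of each ABC gene reported here (rows) in each clone against its parental line (columns), with a star where the gene was called and grey where it was not tested in that line. KMS12PE columns hold 1 star (ABCA3 in clone C), while ABCA4, ABCB10 and ABCD2 are starred in all 3 KMS27 clones.

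The response of the 2 lines was compared in 1 fit over the 11623 genes listed in both, as the KMS12PE clone-minus-parental log2 fold change less that of KMS27. Of 21 members, 5 (23.8%) differed, beside 14.2% of genes. For 4 the value was lower (beside 7.7% of genes) and for ABCC4 it was higher (beside 6.45%). ABCD2 differed most among the members called, by -2.40 (SE 0.18, edgeR adjusted p = 1.51e-06, 95% interval -2.79 to -2.01). In KMS12PE, ABCD2 was at 33.7 and 29.9 CPM in the parental libraries, 25.4 and 25.7 in A, 23.7 and 23.4 in C and 30.4 and 29.9 in D. Clones A and C lay below the parental line there, and even the lowest KMS12PE library, at 23.4 CPM, stood above the highest KMS27 library at 7.99 CPM. ABCB10 differed by -0.76 (SE 0.13, edgeR adjusted p = 0.00198): its clone libraries lay below both parental ones in KMS12PE and above both in KMS27.
ABCB9 differed by -1.10 (SE 0.24, edgeR adjusted p = 0.00750). Its KMS12PE libraries were at 32.1 and 28.4 CPM in the parental line, 35.5 and 29.1 in A, 33.0 and 28.3 in C and 24.9 and 27.2 in D, which overlap, and the difference was not called without KMS27 parental replicate 2 (edgeR adjusted p = 0.0594). ABCC4 differed by 0.80 (SE 0.15, edgeR adjusted p = 0.00377, 95% interval 0.46 to 1.13), from the libraries given above. The difference was not called for ABCC1, which had an interval from -0.19 to 0.30. For ABCB6, whose KMS12PE libraries held 0 to 14 counts, the interval of -1.80 to 1.88 leaves a difference in either direction undetectable at this depth.

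**Figure D4:**
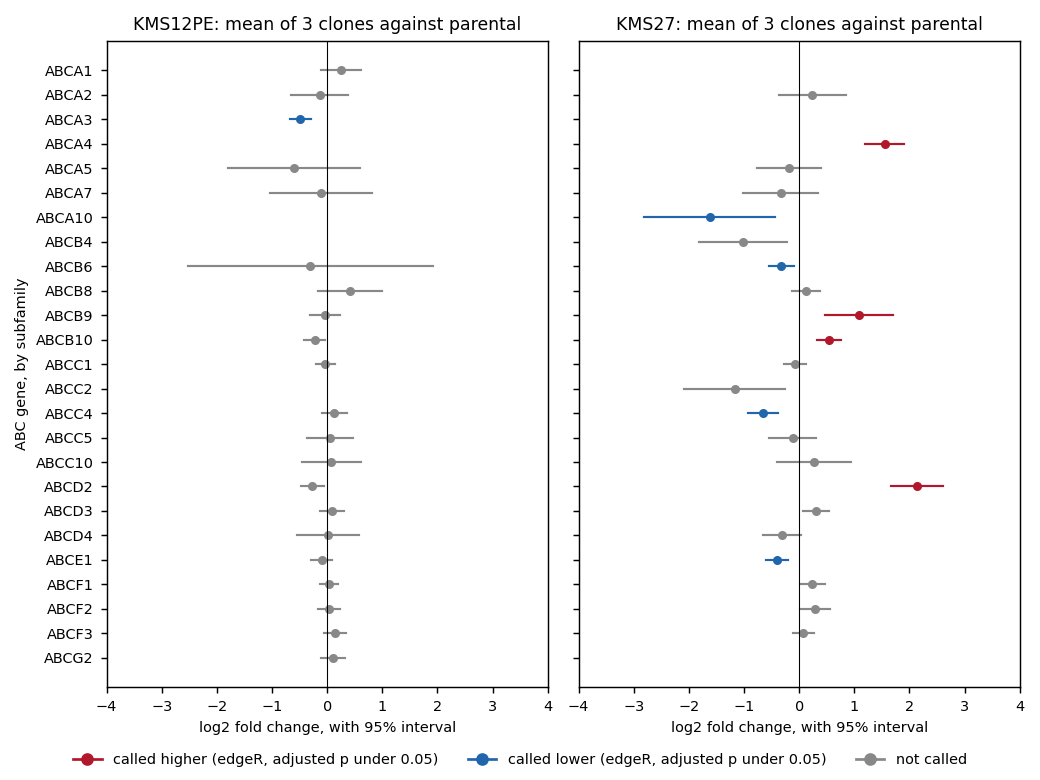
Log2 fold change of each ABC gene reported here in the mean of 3 clones against the parental line, with its 95% interval, for KMS12PE at left and KMS27 at right. In KMS12PE only ABCA3 is coloured as called, and in KMS27 ABCA4, ABCB9, ABCB10 and ABCD2 are called to the right of 0 and ABCA10, ABCB6, ABCC4 and ABCE1 to the left.

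Genes that work with the ABC proteins were counted in lists of their own, on the KMS27 clone-minus-parental scale with 25.8% of genes called. TAP1 and TAP2, the paired ABC peptide transporter that loads MHC class I, rose by 1.01 and 0.33 (edgeR adjusted p = 0.00121 and 0.0174), and both differed between lines (-0.83 and -0.32, edgeR adjusted p = 0.00790 and 0.0411). In the mean of the KMS12PE clones they were at 0.16 and -0.001 and not called. In KMS12PE clone D the 2 genes were at 0.22 and 0.50, not called, both with an unadjusted edgeR p under 0.05. Among the KMS12PE clones 1 of the 2 was called, beside 8.22% of genes. CFTR had no row. Of 21 regulators of transporter transcription tested, 4 rose and 5 fell, among them SREBF1 (-0.77), a regulator of lipid synthesis, NR1H3 (-1.13), the sterol-sensing LXR alpha that drives ABCA1, and RXRA (0.61), its dimer partner. Of 15 glutathione genes 5 rose and 1 fell: GSTM4 rose by 0.92, GCLM by 0.80 and GSS by 0.61. GCLM and GSS make glutathione, whose conjugates the ABCC pumps export.
Of 11 partners of ABCE1 and the ABCF proteins, 3 rose and 2 fell. EIF2S3, a subunit of the initiation factor eIF2, rose by 0.65, MCTS1 by 0.56 and EIF2AK4, the kinase of eIF2, by 0.44. Of 13 partners of the organelle members, 2 rose and 2 fell. PEX19, which delivers ABCD proteins to the peroxisome, rose by 0.55, the haem-making enzyme FECH rose by 0.33 and the peroxisomal enzyme HSD17B4 fell by 0.44. Of 10 other drug transport genes 4 rose and 1 fell. The exporter SLC47A1 (MATE1) fell by 3.05 (edgeR adjusted p = 1.85e-06), the folate carrier SLC19A1 rose by 1.27 and the organic anion transporter SLCO3A1 rose by 1.25. In the mean of the KMS12PE clones, where 1.47% of all genes were called in edgeR, 1 of the 13 organelle partners was called lower. The regulator (19 tested), glutathione (15), soluble-partner (11) and other-transport (9) lists had 0 called, with 3, 2, 0 and 3 genes at an unadjusted p under 0.05. The share of all genes at that unadjusted threshold is not given. By clone, 1 organelle partner was called lower in C. In clone D, where 5.16% of all genes were called, RXRA (3.58), FOXO1 (0.73) and the glutathione-making GCLC (0.61) were called higher, and SLC22A5 (-2.31) and SLC47A1 (-0.98) lower.

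Several members differed more between the 2 libraries of a population than between populations. In KMS12PE, replicate 3 was above replicate 1 in all 4 populations for ABCA2, ABCA5, ABCA7, ABCB6, ABCB8, ABCC5, ABCC10 and ABCD4. The mean differences on the log2 scale, with a prior count of 2, were 1.68 for ABCB6, 1.30 for ABCA5, 0.84 for ABCA7 and 0.55 for ABCB8. ABCB10, ABCC4, ABCD3 and ABCF2 were below in all 4, by means of 0.13 to 0.15. Replicate 3 was also the deeper library in each KMS12PE population. In KMS27, replicate 2 was below replicate 1 in all 4 populations for ABCA10 (mean -1.02), ABCC10 (-0.65), ABCA5 (-0.53), ABCC5 (-0.35), ABCD4 (-0.23) and ABCC1 (-0.10). Among the KMS27 populations, clone B5's libraries stood furthest apart: 8 of 24 members (33.3%) differed by over 0.5 on the log2 scale, beside 28.8% of genes. In the other KMS27 populations the share was 8.33% to 16.7% of members and 11.8% to 14.1% of genes. In KMS12PE the share of members was 17.4% in the parental line, 17.4% in A, 26.1% in C and 34.8% in D. The shares of all genes there were 15.0%, 11.9%, 12.3% and 18.2%. Across 12252 genes, which are not independent replicates, the Pearson correlation of the difference with log2 transcript length was -0.226 in B5, -0.224 in the parental line, -0.168 in C5 and -0.051 in C1. The part of any of these features in the clone comparisons was not tested.

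**Figure D5:**
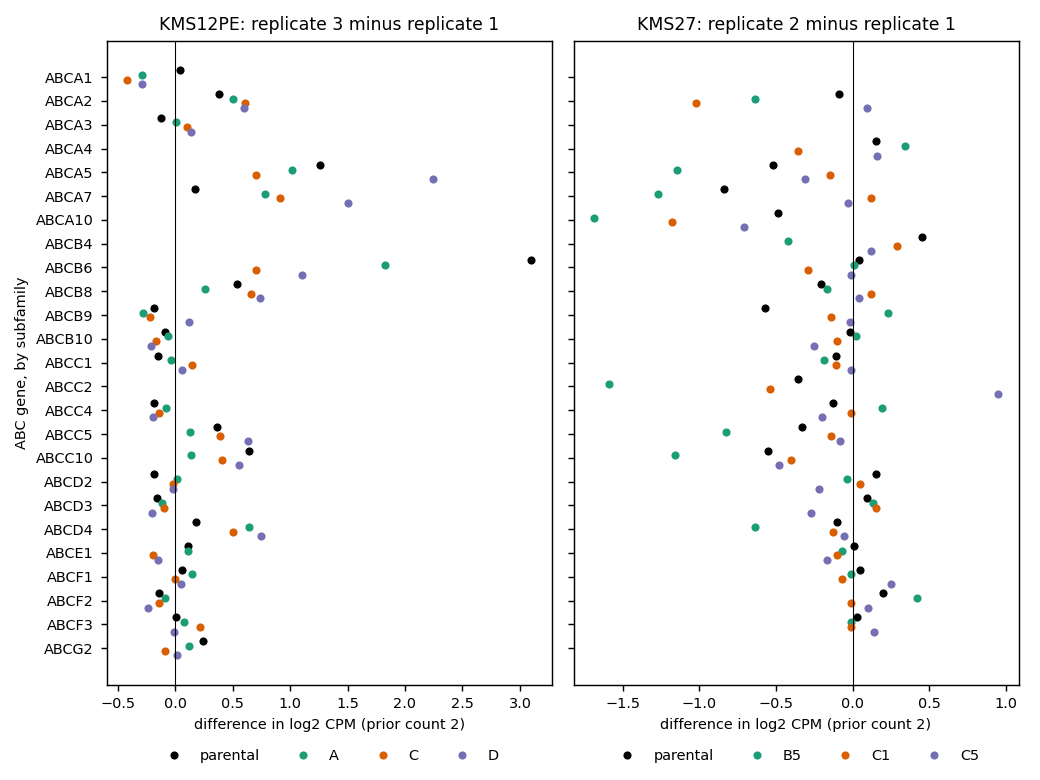
Difference in log2 CPM (prior count 2) between the 2 libraries of each population, replicate 3 minus 1 in KMS12PE and replicate 2 minus 1 in KMS27, for each ABC gene reported here, with 1 point per population. All 4 KMS12PE points lie right of 0 for ABCA5 and ABCB6, and clone B5 is the leftmost KMS27 point for ABCA5, ABCA7, ABCA10, ABCC2, ABCC5 and ABCC10.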

How the data were processed

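PolyA RNA was sequenced from 200 ng of total RNA per library. The deposited tables hold whole-number read counts per gene for the 8 libraries of each line, on hg38 according to the submitters' processing notes. How reads were aligned and counted, with which annotation and strand setting, is not given in the sources used here. From the values, the authors listed genes with at least 5 counts in at least 4 of 8 libraries. Samples were grouped by the labels.

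Counts were tested per line with edgeR 4.0.16 (R 4.3.3): filterByExpr (12279 and 14088 genes tested), TMM scaling, 1 mean per population, quasi-likelihood F test, Benjamini-Hochberg over all genes, 2-sided, called under 0.05. The biological coefficient of variation was 11.9% and 14.3%. A joint fit of the 16 libraries over 11623 shared genes tested differences between lines. Standard errors and 95% intervals come from these fits. Levels are TMM-scaled CPM, divided by merged GENCODE v29 basic exon length (GRCh38) between genes. Clone contrasts share their parental libraries. Scripts were tested on simulated data.

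Alternatives were DESeq2 1.42.0, RLE size factors, no filter, total-count scaling of summed levels, a replicate block and each library left out. Replicate numbers come from the labels. In KMS12PE the correlations of same-numbered deviations were 0.254 to 0.537 for all 6 pairs of populations, so the numbers were taken to pair the libraries. In KMS27 they were 0.0597 to 0.444, and the numbers were not taken to pair them.

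The members and gene lists were chosen with earlier results of these data known. Values per library are given for listed drug efflux pumps, members called in the mean of the clones, in all 3 clones with 1 sign, in a single clone with a log2 fold change of at least 1 in size, or between lines, and the 2 members with the highest level in each line. Other lists name up to 3 called genes per line with the smallest adjusted p. ABCB8, ABCA5 and ABCD3 were added after their values were seen. Some genes of the members and lists enter the fits and counts but are not reported here by name.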

Additional observations from a re-analysis of the deposited data

Results flagged for a closer look

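For 5 of the 21 members tested in both lines, the change in the clones differed between KMS12PE and KMS27 by the edgeR test of the difference itself, where 14.2% of all genes differed, and 4 of the 5 are given here. The values are the KMS12PE log2 fold change less that of KMS27. ABCD2 differed by -2.40, with log2 fold changes of -0.27 in KMS12PE and 2.14 in KMS27. ABCB9 differed by -1.10 (-0.04 and 1.08) and ABCB10 by -0.76 (-0.23 and 0.55). ABCC4 differed by 0.80 (0.13 and -0.66). All 6 KMS27 clone libraries lay above both parental ones for ABCD2, ABCB9 and ABCB10 and below them for ABCC4. In KMS12PE all clone libraries lay below both parental ones for ABCB10, and the others had 2 to 5 clone libraries inside or above the parental range. ABCD2 and ABCB9 had the highest parental excess in KMS12PE among the 21 members, 4.71 and 4.62 on the log2 scale. This excess and the difference in response use the same parental libraries and the same fit. A low KMS27 parental level moves both, so they are not separate support.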

How the results depend on the processing

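RLE size factors left all 12 counts of called members as they were, and the fit without a filter changed 1 of them (KMS27 clones, 9 and not 10). DESeq2 called 0 members over the KMS12PE clones and 0 among them (1 each in edgeR). In KMS27 it called 9 over the clones (without ABCA10 and ABCB6, with ABCC2), 7 in B5 (without ABCB9), 9 in C1, 9 in C5 and 7 among clones, and in the joint fit 5 for the difference between lines and 14 for the parental lines. In KMS12PE the fit with the replicate block called 3 members over the clones, 2 in A, 2 in C, 5 in D and 8 among clones. In KMS27, where the numbers were not taken to pair the libraries, the block called 12 members over the clones. These included ABCC2 (edgeR adjusted p = 0.0341) and ABCD3. The block called 9 in B5, 10 in C1, 11 in C5 and 7 among clones. The joint counts with the block were 5 for the difference between lines, as without it, and 15 for the parental lines (13 without it). Leaving out 1 library in turn gave 0 to 1 members over the KMS12PE clones, 0 to 0 in A, 0 to 1 in C, 0 to 1 in D and 0 to 0 among clones. In KMS27 it gave 3 to 16 over the clones, 3 to 17 in B5, 4 to 12 in C1, 2 to 15 in C5 and 0 to 11 among clones. The difference between lines kept 4 to 5 members and the parental comparison 11 to 13. The cause of these shifts was not tested, and a population left with 1 library is assumed to vary like the others. Apart from the KMS12PE block, the share of all genes called is not given for these alternatives or at an unadjusted p. Whether the shifts are particular to the members was therefore not tested. For the means of the clones and the difference between lines, no member called in the main or alternative fit changed sign. Members called in neither fit changed sign in some alternatives, and signs in the other comparisons were not compared. Depth limits ABCC2 and ABCB6 in KMS12PE and ABCA10 and ABCB4 in KMS27, where 3 counts are 0.219 to 0.514 CPM and 0.057 to 0.148 CPM per library. The parental KMS27 values of ABCD2 and ABCB9 also rest on few counts, 57 and 58 in all, beside 51 for ABCA10 and 46 for ABCB4.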
